A study of Mus musculus with 12 samples.

Results

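The genes described here code for enzymes that attach a soluble group to foreign and endogenous compounds, or that cut their ester bonds: UDP-glycosyltransferases (Ugt), sulfotransferases (Sult), cytosolic and related glutathione S-transferases (Gst), microsomal glutathione S-transferases (Mgst) and carboxylesterases (Ces). Members were all genes with a probe set of exactly 1 symbol beginning with one of these family names, and for each gene the probe set with the highest mean over 12 arrays was used. This gave 65 of 19938 genes: 11 Ugt, 16 Sult, 19 Gst, 3 Mgst and 16 Ces. A further 17 symbols of these families, among them 8 genes of the Ugt1a locus, Gsta1, Gsta2 and Gstp2, were carried only by probe sets shared between several genes and are not members. Closely related genes may also share RNA on a single-symbol probe set, so differences between near paralogues are uncertain.

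Ugt enzymes sit in the endoplasmic reticulum and transfer a sugar, mostly glucuronic acid from UDP-glucuronic acid. Sult enzymes take sulfate from the donor PAPS, and glutathione S-transferases join glutathione to reactive electrophiles, including products of lipid peroxidation. Carboxylesterases hydrolyse esters and amides of drugs and lipids. The proximal tubule of the kidney takes up organic anions from blood, conjugates many of them and secretes the conjugates, and it also breaks down glutathione conjugates at its brush border.

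The samples were 12 renal cortex RNA preparations from mice, 3 in each of 4 groups, hybridised to Affymetrix gene arrays after amplification. GR-deficient mice (Pax8-Cre;nr3c1 flox/flox) lack the glucocorticoid receptor (GR, gene Nr3c1) in renal tubular epithelium, where Pax8 drives Cre. They were studied with acute kidney injury (AKI), at 24 h after glycerol had been injected into muscle, and healthy, without injection. Control mice (nr3c1 flox/flox) carried the same floxed alleles without Cre and were studied with AKI and healthy in the same way, so a difference between genotypes includes any effect of Cre. The uninjected mice were a separate cohort, and the labels used here give no age. Each difference between AKI and healthy, called a rise, a fall or a response below, therefore includes any effect of cohort or of the injection itself. Glycerol damages muscle, and the myoglobin released injures the tubule.

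All values are log2 expression values, and each difference is on the log2 scale. A member is called where the adjusted p of the limma fit across all 19938 genes was below 0.05. The labels number the replicates without saying that each came from another animal, so the p-values rest on the scatter among these samples, which may be technical only. Nr3c1 lay between 7.87 and 8.10 in GR-deficient AKI and between 8.13 and 8.21 in GR-deficient healthy cortices, against 8.82 to 8.89 in control AKI and 9.47 to 9.65 in control healthy cortices, in the order of the labels. The cortex still holds cells without Pax8-Cre. All 16 proximal tubule markers were measured, with array means of 11.04 or more, and the 11 hepatocyte markers measured averaged 7.16 to 7.50 on the arrays. Control AKI replicate 1 and GR-deficient healthy replicate 1 stood apart from the other arrays of their groups in the principal components (33.8 on the second and 34.8 on the third component).

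Promoters were examined for members that moved in different ways, because several of these genes are neighbours of the same family. RefSeq promoter windows (build GRCm38.p6) were found for 57 of the 65 members. Shown 5′ to 3′ are the 250 bases before the annotated start of 2 Ces1 genes on chromosome 8 that lie in 1 cluster and differed in their response, of 2 Ugt2b genes of 1 cluster on chromosome 5 that also differed, and of Gsta3 and Mgst1, glutathione S-transferases that rose in AKI. Capitals mark matches to any of 5 motifs searched on both strands, and bases are counted backwards from the start site. The windows are chr8:93337210-93337459 (minus strand) for Ces1g, chr8:93229620-93229869 (minus strand) for Ces1e, chr5:86906938-86907187 (minus strand) for Ugt2b34, chr5:87140341-87140590 (minus strand) for Ugt2b5, chr1:21240335-21240584 (plus strand) for Gsta3 and chr6:138140277-138140526 (plus strand) for the more upstream of 2 annotated starts of Mgst1.
Ces1g: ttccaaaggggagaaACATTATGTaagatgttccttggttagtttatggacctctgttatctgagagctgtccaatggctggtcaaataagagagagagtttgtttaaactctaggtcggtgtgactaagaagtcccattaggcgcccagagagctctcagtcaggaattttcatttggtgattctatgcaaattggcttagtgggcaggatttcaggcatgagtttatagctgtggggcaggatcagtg
Ces1e: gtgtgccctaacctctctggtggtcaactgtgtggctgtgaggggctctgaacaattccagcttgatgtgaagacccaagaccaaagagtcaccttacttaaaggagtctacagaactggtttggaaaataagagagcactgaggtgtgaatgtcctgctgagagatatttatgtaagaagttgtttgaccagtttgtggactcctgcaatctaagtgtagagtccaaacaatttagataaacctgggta
Ugt2b34: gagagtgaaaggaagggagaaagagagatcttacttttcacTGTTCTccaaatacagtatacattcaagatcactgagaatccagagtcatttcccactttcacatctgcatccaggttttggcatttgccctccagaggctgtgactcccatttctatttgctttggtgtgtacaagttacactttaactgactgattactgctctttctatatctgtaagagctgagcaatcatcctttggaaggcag
Ugt2b5: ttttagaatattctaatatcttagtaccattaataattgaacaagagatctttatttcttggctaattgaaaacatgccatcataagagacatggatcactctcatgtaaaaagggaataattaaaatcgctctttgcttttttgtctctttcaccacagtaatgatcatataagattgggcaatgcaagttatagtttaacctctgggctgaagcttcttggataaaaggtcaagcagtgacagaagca
Gsta3: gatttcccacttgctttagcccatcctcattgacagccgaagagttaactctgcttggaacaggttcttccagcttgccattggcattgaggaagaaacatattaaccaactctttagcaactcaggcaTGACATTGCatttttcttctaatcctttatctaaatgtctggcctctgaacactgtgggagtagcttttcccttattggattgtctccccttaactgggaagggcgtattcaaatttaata
Mgst1: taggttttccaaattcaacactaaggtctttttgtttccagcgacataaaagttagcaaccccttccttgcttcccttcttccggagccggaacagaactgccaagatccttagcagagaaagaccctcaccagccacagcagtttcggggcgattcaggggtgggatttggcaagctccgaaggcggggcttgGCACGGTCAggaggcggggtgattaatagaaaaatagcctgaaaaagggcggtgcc

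The core of the antioxidant response element, searched as TGACNNNGC, occurred in the windows of 4 of the 57 members (Gsta3, Gstm5, Gstm7 and Mgst1) and in 10.2% of all 32851 windows. In Gsta3 it spanned bases -121 to -113, and in Mgst1 bases -56 to -48 on the other strand. Of the other members that rose in both genotypes, Gstm6, Gsto1, Gstp1 and Gstp3 held no such match, and Gsta4 had no window. The windows shown therefore do not stand for all members that rose. The inner core of the glucocorticoid response element, ACANNNTGT, which reads the same on both strands, occurred in 3 members (Ces1g, Sult2a8 and Sult6b2) and in 5.84% of all windows. In Ces1g it spanned bases -235 to -227. The single site TGTTCT, which can overlap the end of that core, occurred in 12 members and in 16.1% of all windows, among them Ugt2b34 at bases -209 to -204. The core of the xenobiotic response element, GCGTG, occurred in 9 members and 28.2% of all windows, and the HNF1 letters GTTAATNAT occurred in 4 members (Ces5a, Sult1d1, Sult2a3 and Sult2a6) and 0.737% of all windows. A member was counted where any of its windows matched, whereas the shares of all windows count each window. The 57 members had 70 windows. Of these, 4 held the antioxidant core, 3 the glucocorticoid core, 13 TGTTCT, 10 GCGTG and 4 the HNF1 letters. The windows of Ces1e and Ugt2b5 held none of the 5 motifs. These matches describe letters and do not show binding.

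The families differed in how their called members moved in AKI. In GR-deficient mice 8 Gst genes, Mgst1, Ces1g, Ces2e and Ugt2b34 were higher in AKI, and 5 Ugt genes, Ces1d, Ces1e and Sult1d1 were lower. In control mice 7 Ugt genes, 6 Ces genes, 6 Gst genes, Sult1c2 and Sult1d1 were lower in AKI, while Mgst1, Sult1e1, Sult2b1 and 7 Gst genes of the alpha, mu, pi and omega classes were higher. Of the 65 members, 20 were called between AKI and healthy GR-deficient cortices, where 4.64% of all genes were called. These were 12 higher and 8 lower members, against 3.29% of all genes higher and 1.35% lower, and 7 of them differed by at least 2-fold, against 0.677% of all genes. In control mice 31 were called, where 28.7% of all genes were called. These were 10 higher and 21 lower members, against 13.6% of all genes higher and 15.1% lower, and 19 of them differed by at least 2-fold, against 6.55% of all genes. AKI and healthy arrays did not overlap for 25 members in GR-deficient mice, against 25.3% of all genes, and for 34 in control mice, against 39.6% of all genes. The median difference over the members was -0.02 in GR-deficient mice, against -0.03 over all genes, and -0.17 in control mice, against 0.00 over all genes. Without GR-deficient AKI replicate 1 the count for GR-deficient mice was 12, where 1.39% of all genes were called.

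Between the AKI groups, 27 members were called, where 17.4% of all genes were called. In GR-deficient mice 25 were higher and 2 lower, against 10% of all genes higher and 7.34% lower, and 10 of them differed by at least 2-fold, against 2.85% of all genes. The arrays of the AKI groups did not overlap for 30 members, against 32.8% of all genes. The median difference was 0.22 over the members and -0.04 over all genes. Between the healthy groups 1 member, Gsta4, was called as higher in GR-deficient mice, where 0.145% of all genes were called and 0.0351% as higher. The arrays of the healthy groups did not overlap for 19 members, against 18.6% of all genes. The difference between the genotypes in the response to AKI (the interaction) was called for 23 members, where 11.5% of all genes were called. The response in GR-deficient mice was higher for 19 and lower for 4, against 7.39% and 4.06% of all genes, and it differed by at least 2-fold for 13, against 4.03% of all genes. Its median was 0.22 over the members and -0.03 over all genes. The comparisons share arrays: the AKI response of control mice, the comparison of the AKI groups and the interaction all use the control AKI arrays.

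**Figure D1:**
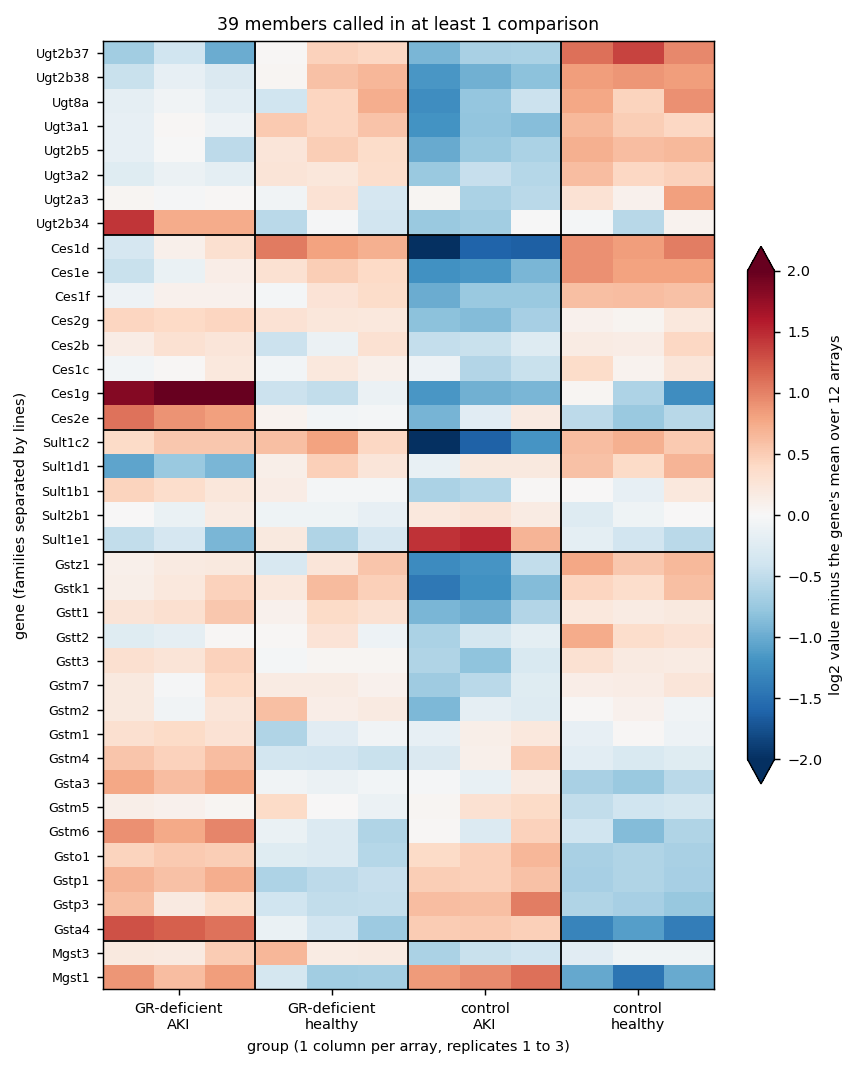
Log2 value minus the mean of the gene over 12 arrays for the 39 members called in at least 1 of 5 contrasts, with genes down the page by family and 1 column for each array. In the control AKI arrays most Ugt genes, Ces1d, Ces1e, Sult1c2, Gstk1 and Gstz1 are below their mean. In the GR-deficient AKI arrays Ces1g, Ugt2b34, Gsta4 and Mgst1 are above their mean, and Gsta4 and Mgst1 are above it in the control AKI arrays too.

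Of the 21 members that fell in control mice with AKI, 8 also fell in GR-deficient mice and 0 rose. In GR-deficient mice 1.35% of all genes fell and 3.29% rose. The median difference over these 21 was -0.18 in GR-deficient and -1.43 in control mice. These 21, and the 10 below, were chosen by their calls in control mice, so the choice itself enlarges the control medians. The medians therefore do not measure a difference in response. How often all genes called in control mice were also called in GR-deficient mice was not counted. Those that fell in both genotypes were Ces1d, Ces1e, Sult1d1, Ugt2b37, Ugt2b38, Ugt2b5, Ugt3a1 and Ugt3a2. Of the 10 members that rose in control mice, 7 also rose in GR-deficient mice, with medians of 0.84 in GR-deficient and 1.15 in control mice. These 7 were Gsta3, Gsta4, Gstm6, Gsto1, Gstp1, Gstp3 and Mgst1. A further 5 members rose in GR-deficient mice and were not called in control mice: Ces1g, Ces2e, Gstm1, Gstm4 and Ugt2b34. The test of the difference in response itself was passed by Ces1g (2.72, adjusted p = 0.000158) and Ugt2b34 (1.60, adjusted p = 0.00594) but not by Ces2e (0.66, 0.17), Gstm1 (0.50, 0.122) and Gstm4 (0.58, 0.098).

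**Figure D2:**
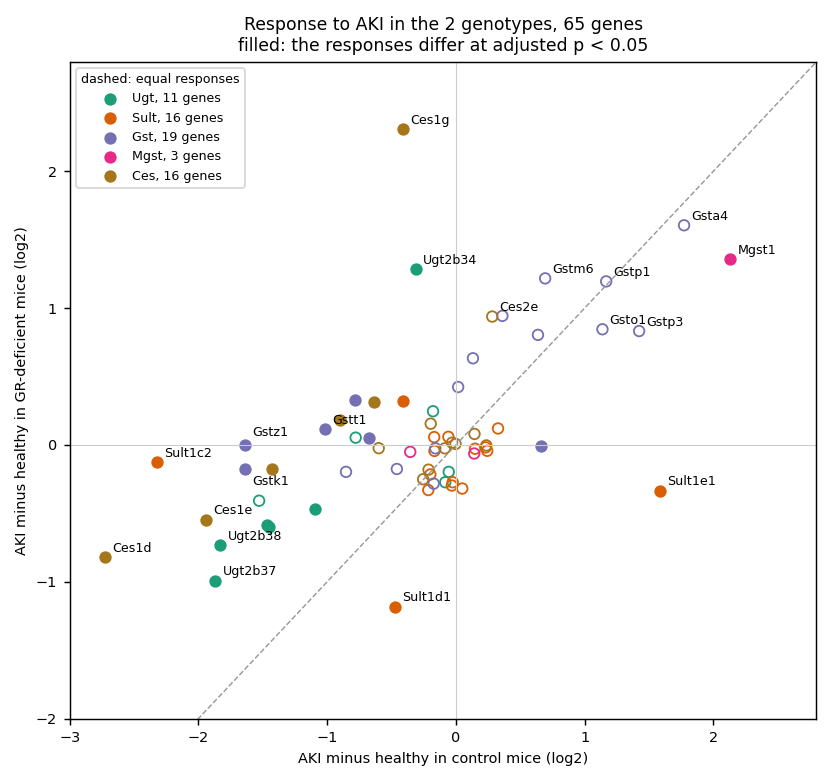
AKI minus healthy difference of each of the 65 members in GR-deficient mice (vertical axis, log2) against that in control mice (horizontal axis, log2), with filled points where the responses differed at adjusted p below 0.05. Ces1g (2.31 in GR-deficient, -0.41 in control mice) and Sult1e1 (-0.34 and 1.58) lie far from the dashed line of equal responses, and Gstp1 (1.2 and 1.17) lies on it.

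Among the UDP-glycosyltransferases, 6 of 11 were called in GR-deficient mice with AKI (1 higher, 5 lower) and 7 of 11 in control mice (all lower). Of all genes 4.64% were called in GR-deficient mice and 28.7% in control mice. The family median was -0.41 in GR-deficient and -1.09 in control mice. Ugt2b genes code for glucuronosyltransferases of steroids and many drugs. Ugt2b37 was at 9.50, 9.80 and 9.21 in GR-deficient AKI and 10.22, 10.66 and 10.61 in GR-deficient healthy cortices, against 9.28, 9.56 and 9.56 in control AKI and 11.29, 11.55 and 11.16 in control healthy cortices. The AKI arrays of both genotypes lay below all healthy arrays and overlapped each other, and the healthy arrays of the genotypes did not overlap. It fell by 0.99 in GR-deficient mice (adjusted p = 0.00384) and by 1.87 in control mice (adjusted p = 8.55e-07). Between the healthy groups it differed by -0.84 and missed the threshold (adjusted p = 0.0614). The responses differed by 0.88 (adjusted p = 0.0246), which was lost without GR-deficient AKI replicate 2 (0.0694), GR-deficient healthy replicate 1 (0.0614) or control healthy replicate 2 (0.067).

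Ugt2b38 was at 11.33, 11.62 and 11.49 in GR-deficient AKI and 11.82, 12.37 and 12.45 in GR-deficient healthy cortices, against 10.61, 10.83 and 10.96 in control AKI and 12.62, 12.66 and 12.62 in control healthy cortices. The 4 groups did not overlap, with control AKI lowest and control healthy highest. It fell by 0.73 in GR-deficient and by 1.83 in control mice, and it was 0.68 higher in GR-deficient than control AKI cortices (adjusted p = 0.00525). The responses differed by 1.10 (SE 0.21, adjusted p = 0.00392). Ugt2b5 had a similar course, with differences after AKI of -0.60 in GR-deficient and -1.45 in control mice and a difference in response of 0.85 (adjusted p = 0.00969). Ugt2a3 fell by 0.78 in control mice, which was lost without control healthy replicate 3 (adjusted p = 0.0543). Its mean over 12 arrays was at the 12.1 percentile of all genes, and whether it lies above background is not shown.

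Ugt3a1 belongs to a small family whose human member uses UDP-N-acetylglucosamine. It was at 11.53, 11.72 and 11.59 in GR-deficient AKI and 12.22, 12.13 and 12.26 in GR-deficient healthy cortices, against 10.50, 10.90 and 10.83 in control AKI and 12.33, 12.18 and 12.10 in control healthy cortices. The AKI groups lay apart from each other and below the healthy groups, which overlapped. It was 0.87 higher in GR-deficient than control AKI cortices (adjusted p = 0.000137), and the fall of 0.59 in GR-deficient mice was smaller than the fall of 1.46 in control mice (difference in response 0.88, adjusted p = 0.00353). Its neighbour Ugt3a2 fell by 0.47 in GR-deficient and by 1.09 in control mice. On 2 probe sets shared by these genes the differences in GR-deficient mice missed the threshold (-0.38 and -0.39, adjusted p = 0.0673 and 0.0609). Ugt8a, which makes galactosylceramide, a lipid of myelin and kidney, was at 10.23, 10.35 and 10.20 in GR-deficient AKI and 10.01, 10.84 and 11.15 in GR-deficient healthy cortices, against 9.17, 9.64 and 9.99 in control AKI and 11.20, 10.87 and 11.33 in control healthy cortices. The control AKI arrays lay below all others, and the GR-deficient groups overlapped. It fell by 1.53 in control mice (adjusted p = 0.000226). The difference in response, 1.12, missed the threshold (adjusted p = 0.0529).

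Ugt2b34 was the only Ugt member called higher in AKI in either genotype. It was at 9.93, 9.24 and 9.25 in GR-deficient AKI and 7.97, 8.48 and 8.12 in GR-deficient healthy cortices, against 7.76, 7.80 and 8.51 in control AKI and 8.47, 7.96 and 8.58 in control healthy cortices. The 3 GR-deficient AKI arrays lay above all others, and the other 3 groups overlapped. The difference after AKI was 1.28 in GR-deficient mice (2.44-fold, adjusted p = 0.00652) and -0.31 in control mice (adjusted p = 0.407), and GR-deficient exceeded control AKI cortices by 1.45 (adjusted p = 0.000572). Its call held without any single array. Of the falls in GR-deficient mice, that of Ugt2b37 also held without any single array, and the other 4 did not: without GR-deficient AKI replicate 1 the adjusted p was 0.0887 for Ugt2b38, 0.0765 for Ugt2b5, 0.0759 for Ugt3a1 and 0.118 for Ugt3a2. Without GR-deficient healthy replicate 2 it was 0.0643 for Ugt2b38, 0.092 for Ugt2b5 and 0.0511 for Ugt3a2. Without GR-deficient AKI replicate 3 it was 0.0797 for Ugt2b5 and 0.0543 for Ugt3a2, and without GR-deficient healthy replicate 3 it was 0.0558 for Ugt3a2. The higher level in GR-deficient AKI was lost without GR-deficient AKI replicate 2 for Ugt2b5 (0.0595) and Ugt3a2 (0.0652).

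Among the sulfotransferases, 1 of 16 was called in GR-deficient mice with AKI (lower), and 4 of 16 in control mice (2 higher, 2 lower). These shares, 6.25% and 25%, were near those of all genes, 4.64% and 28.7%. A set of 11 Sult genes was called in no contrast, so the family rests on a few genes that moved in different directions. Sult1c2 sulfates phenols and is known from kidney and stomach. It was at 10.79, 10.95 and 10.94 in GR-deficient AKI and 11.02, 11.21 and 10.83 in GR-deficient healthy cortices, against 8.08, 8.79 and 9.23 in control AKI and 11.03, 11.12 and 10.94 in control healthy cortices. The control AKI arrays lay below all others, and the other 3 groups overlapped. The difference after AKI was -0.12 in GR-deficient mice (95% interval -0.57 to 0.32, adjusted p = 0.807) and -2.33 in control mice, which is 0.199 of the healthy level (adjusted p = 1.04e-06). The responses differed by 2.20 (adjusted p = 0.000339).

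Sult1e1, estrogen sulfotransferase, was higher in AKI in control mice. It was at 3.5, 3.66 and 3.08 in GR-deficient AKI and 4.19, 3.39 and 3.67 in GR-deficient healthy cortices, against 5.45, 5.5 and 4.68 in control AKI and 3.80, 3.62 and 3.46 in control healthy cortices. The control AKI arrays lay above all others; the mean of the gene over 12 arrays was at the 5.1 percentile of all genes, and array medians lay between 7.001 and 7.092. Whether the other 3 groups lie above background is not shown, so the differences given have no fixed fold. It rose by 1.58 in control mice (adjusted p = 9.14e-05) and differed by -0.34 in GR-deficient mice (adjusted p = 0.486). The GR-deficient AKI level was 1.79 lower than that of control AKI (difference -1.79, adjusted p = 8.87e-05).

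Sult1d1 sulfates catecholamines in rodents. It was at 10.82, 11.13 and 10.97 in GR-deficient AKI and 11.997, 12.36 and 12.12 in GR-deficient healthy cortices, against 11.74, 12.07 and 12.08 in control AKI and 12.48, 12.27 and 12.57 in control healthy cortices. The GR-deficient AKI arrays lay below all others. It fell by 1.18 in GR-deficient mice (0.44 of the healthy level, adjusted p = 0.000284) and by 0.47 in control mice (adjusted p = 0.0154), and the GR-deficient AKI level was below that of control AKI by 0.99 (difference -0.99, adjusted p = 0.00015). The fall in control mice was lost without control AKI replicate 1 (0.0549), control healthy replicate 1 (0.0546) or control healthy replicate 3 (0.074). The difference in response, -0.71 (adjusted p = 0.0261), was lost in 6 of 12 fits without 1 array (adjusted p 0.0523 to 0.0721), those without GR-deficient AKI replicates 1 or 3, GR-deficient healthy replicate 2, control AKI replicate 2 or control healthy replicates 1 or 2.

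Sult1b1, known for sulfating thyroid hormones, was at 5.69, 5.59 and 5.47 in GR-deficient AKI and 5.38, 5.19 and 5.20 in GR-deficient healthy cortices, against 4.61, 4.66 and 5.26 in control AKI and 5.24, 5.07 and 5.44 in control healthy cortices. The GR-deficient AKI arrays lay above all others. It was 0.74 higher in GR-deficient than control AKI cortices (adjusted p = 0.00447). The difference in response, 0.73, had an adjusted p of 0.0488 and was lost without any 1 array (adjusted p 0.0558 to 0.129) other than control AKI replicate 3 or control healthy replicate 2. Sult2b1, a cholesterol sulfotransferase, rose by 0.33 in control mice (adjusted p = 0.0333), which was lost without control AKI replicate 2 (0.105), control healthy replicate 1 (0.165) or control healthy replicate 2 (0.0737).

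The glutathione S-transferases divided by class. In GR-deficient mice with AKI 8 of 19 were called, all higher, and in control mice 13 were called, 7 higher and 6 lower. Of all genes 3.29% were higher in GR-deficient mice, and 13.6% were higher and 15.1% lower in control mice. The classes alpha, pi and omega, with 2 genes each, held only higher calls in both genotypes, and in the omega class only Gsto1 was called. The theta class and the single kappa and zeta genes held only lower calls in control mice and no call in GR-deficient mice. The mu class, 7 genes side by side on chromosome 3, had 3 higher calls and 0 lower in GR-deficient mice. In control mice it was mixed, with 2 higher and 1 lower.

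Gsta4 detoxifies 4-hydroxynonenal, an aldehyde of lipid peroxidation. It was at 11.62, 11.54 and 11.43 in GR-deficient AKI and 10.20, 9.95 and 9.62 in GR-deficient healthy cortices, against 10.84, 10.86 and 10.82 in control AKI and 9.02, 9.24 and 8.95 in control healthy cortices. The 4 groups did not overlap, and GR-deficient arrays lay above control arrays in both conditions. It rose by 1.61 in GR-deficient mice (3.04-fold, adjusted p = 3.46e-05) and by 1.77 in control mice (3.42-fold, adjusted p = 2.48e-07). It was the only member called between the healthy groups (0.85 higher in GR-deficient mice, adjusted p = 0.0233). That call was lost without GR-deficient healthy replicate 1 (0.117), GR-deficient healthy replicate 2 (0.0799), control healthy replicate 1 (0.136) or control healthy replicate 3 (0.126). Gsta3 was also higher in both genotypes after AKI (0.80 in GR-deficient, 0.64 in control mice), and its difference between the healthy groups was 0.56 (adjusted p = 0.0613).

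Gstp1, the pi-class transferase, was at 13.22, 13.12 and 13.26 in GR-deficient AKI and 11.92, 12.01 and 12.08 in GR-deficient healthy cortices, against 13.03, 13.02 and 13.12 in control AKI and 11.87, 11.93 and 11.87 in control healthy cortices. AKI and healthy arrays were apart in both genotypes, and the genotypes overlapped in both conditions. The rises of 1.2 in GR-deficient and 1.17 in control mice differed by 0.03 (95% interval -0.25 to 0.31). On 2 probe sets shared by Gstp1 and Gstp2 the GR-deficient AKI arrays lay above the control AKI arrays (0.34 and 0.35, adjusted p = 0.0484 and 0.0427). Gstp3 rose by 0.83 in GR-deficient and 1.42 in control mice, and Gsto1, an omega-class enzyme that reduces dehydroascorbate, by 0.85 in GR-deficient and 1.14 in control mice.

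Gstm6 was at 6.75, 6.6 and 6.81 in GR-deficient AKI and 5.71, 5.57 and 5.23 in GR-deficient healthy cortices, against 5.86, 5.57 and 6.30 in control AKI and 5.44, 4.97 and 5.24 in control healthy cortices. The GR-deficient AKI arrays lay above all others. It rose by 1.22 in GR-deficient mice (adjusted p = 0.0017) and by 0.69 in control mice (adjusted p = 0.008), and the GR-deficient AKI level exceeded that of control AKI by 0.81 (adjusted p = 0.00511). Of its neighbours, Gstm4 (0.94) and Gstm1 (0.63) rose in GR-deficient mice, Gstm5 rose (0.66) and Gstm7 fell (-0.67) in control mice. The call of Gstm1 was lost without GR-deficient AKI replicate 1 (0.0786), GR-deficient AKI replicate 2 (0.0692) or GR-deficient healthy replicate 1 (0.0557). Gstm2 was 0.57 higher in GR-deficient than control AKI cortices, which was lost without GR-deficient AKI replicate 1 (0.114), GR-deficient AKI replicate 3 (0.131) or control AKI replicate 1 (0.136). The difference in response of Gstm7, 0.73, was lost without GR-deficient AKI replicate 3 (0.0584), control AKI replicate 2 (0.0502) or control healthy replicate 3 (0.0545). That of Gstm5, -0.67, was lost without any 1 GR-deficient AKI or control healthy array or control AKI replicates 2 or 3 (0.0503 to 0.0792). Between the genotypes Gstm5 differed by -0.16 in AKI (adjusted p = 0.483) and by 0.51 in healthy mice (adjusted p = 0.171), and neither was called.

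Gstk1 is found in mitochondria and peroxisomes. It was at 10.08, 10.18 and 10.42 in GR-deficient AKI and 10.17, 10.60 and 10.44 in GR-deficient healthy cortices, against 8.53, 8.76 and 9.09 in control AKI and 10.39, 10.32 and 10.57 in control healthy cortices. The control AKI arrays lay below all others, which overlapped. It differed by -0.17 after AKI in GR-deficient mice (adjusted p = 0.599) and fell by 1.64 in control mice (adjusted p = 1.48e-06), with a difference in response of 1.46 (adjusted p = 0.000664).

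Gstz1, the maleylacetoacetate isomerase of tyrosine breakdown, was at 11.18, 11.25 and 11.27 in GR-deficient AKI and 10.76, 11.32 and 11.62 in GR-deficient healthy cortices, against 9.82, 9.89 and 10.57 in control AKI and 11.85, 11.62 and 11.73 in control healthy cortices. The control AKI arrays were again lowest, and the GR-deficient healthy array nearest to them was replicate 1. Gstz1 differed by 0.00 in GR-deficient mice and fell by 1.64 in control mice (adjusted p = 2.41e-05). Gstt1, of the theta class, was at 10.25, 10.31 and 10.52 in GR-deficient AKI and 10.07, 10.37 and 10.30 in GR-deficient healthy cortices, against 9.08, 9.01 and 9.41 in control AKI and 10.20, 10.15 and 10.19 in control healthy cortices. The control AKI arrays lay below all others, with a difference of 1.2 between GR-deficient and control AKI (adjusted p = 1.78e-05) and a difference in response of 1.13 (adjusted p = 0.000966). Gstt3 (1.12) also differed in response and Gstt2 did not pass (0.66, adjusted p = 0.0633).

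The microsomal transferase Mgst1, of the endoplasmic reticulum and outer mitochondrial membrane, was at 11.36, 11.10 and 11.31 in GR-deficient AKI and 10.12, 9.78 and 9.79 in GR-deficient healthy cortices, against 11.32, 11.41 and 11.58 in control AKI and 9.45, 9.01 and 9.46 in control healthy cortices. AKI arrays were above healthy arrays in both genotypes, the genotypes overlapped in AKI, and in healthy mice the GR-deficient arrays were higher. It rose 2.56-fold in GR-deficient mice (1.36, adjusted p = 0.000207) and 4.38-fold in control mice (2.13, adjusted p = 8.07e-08). The difference in response was -0.77 (adjusted p = 0.0212), which was lost without GR-deficient AKI replicate 2 (0.0631), GR-deficient healthy replicate 1 (0.0504) or control healthy replicate 2 (0.0529). Mgst3, a membrane enzyme related to leukotriene C4 synthase, was at 10.62, 10.61 and 10.94 in GR-deficient AKI and 11.11, 10.60 and 10.62 in GR-deficient healthy cortices, against 9.81, 9.99 and 10.03 in control AKI and 10.20, 10.34 and 10.34 in control healthy cortices. GR-deficient arrays lay above control arrays in both conditions, and the difference was called in AKI (0.78, adjusted p = 0.00131) but not in healthy mice (0.48, adjusted p = 0.233).

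**Figure D3:**
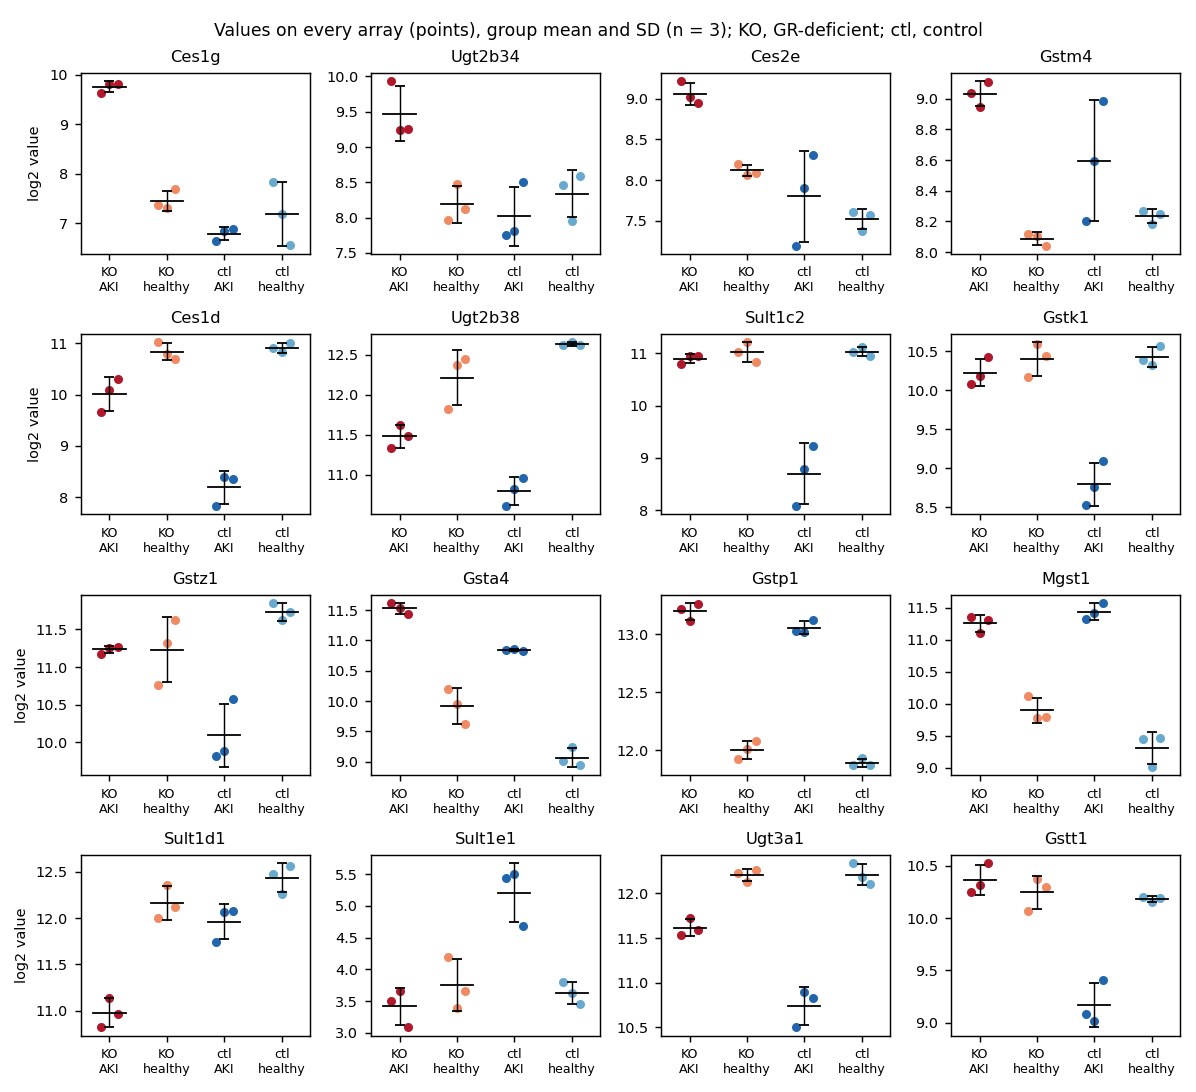
Log2 values on every array for 16 members, with the mean and SD of each group of 3 arrays (KO, GR-deficient; ctl, control) and an axis of its own for each gene. In Ces1g and Ugt2b34 the GR-deficient AKI arrays are highest, in Sult1c2, Gstk1 and Gstt1 the control AKI arrays are lowest, and in Gsta4 all 4 groups are apart.

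Among the carboxylesterases, 4 of 16 were called in GR-deficient mice with AKI (2 higher, 2 lower) and 6 in control mice (all lower). Of all genes 4.64% were called in GR-deficient mice, and 28.7% were called in control mice, 15.1% as lower. Between the AKI groups 8 were called, all higher in GR-deficient mice, against 10% of all genes higher. Ces1g, a hydrolase of triglycerides and other esters known from mouse liver, had the largest difference of any member in GR-deficient mice. It was at 9.63, 9.82 and 9.82 in GR-deficient AKI and 7.36, 7.30 and 7.68 in GR-deficient healthy cortices, against 6.63, 6.83 and 6.88 in control AKI and 7.84, 7.17 and 6.55 in control healthy cortices. The 3 GR-deficient AKI arrays lay above all others, and the control healthy arrays spread over more than the other groups (SD 0.64, against 0.11 to 0.20). It rose 4.96-fold in GR-deficient mice (2.31, SE 0.23, adjusted p = 0.000156) and differed by -0.41 in control mice (adjusted p = 0.233). The level was 7.86-fold higher in GR-deficient than control AKI cortices (2.97, adjusted p = 1.51e-06).

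Of the neighbours of Ces1g, Ces1c, Ces1d, Ces1e and Ces1f fell in control mice. Ces1d, a triglyceride hydrolase of liver and fat, was at 9.65, 10.09 and 10.31 in GR-deficient AKI and 11.02, 10.79 and 10.70 in GR-deficient healthy cortices, against 7.82, 8.39 and 8.36 in control AKI and 10.90, 10.82 and 11.01 in control healthy cortices. The AKI groups lay below the healthy groups and apart from each other, and the healthy groups overlapped. It fell by 0.82 in GR-deficient mice (adjusted p = 0.0153) and by 2.72 in control mice, which is 0.151 of the healthy level (adjusted p = 6.05e-08). The fall in GR-deficient mice was lost without GR-deficient AKI replicate 1 (0.0997) or GR-deficient healthy replicate 1 (0.0661). The 2 responses differed by 1.90 (adjusted p = 0.000273).

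Ces1e, the esterase that holds beta-glucuronidase in the endoplasmic reticulum, was at 8.67, 8.98 and 9.26 in GR-deficient AKI and 9.43, 9.61 and 9.51 in GR-deficient healthy cortices, against 7.90, 7.96 and 8.21 in control AKI and 10.04, 9.92 and 9.92 in control healthy cortices. The 4 groups did not overlap. It fell by 0.55 in GR-deficient mice (adjusted p = 0.0363) and by 1.94 in control mice (adjusted p = 1.31e-07). The fall in GR-deficient mice was lost without any 1 array of its groups except GR-deficient AKI replicate 3 (0.0599 to 0.207). Ces1f was at 12.02, 12.21 and 12.22 in GR-deficient AKI and 12.09, 12.40 and 12.50 in GR-deficient healthy cortices, against 11.14, 11.39 and 11.39 in control AKI and 12.74, 12.74 and 12.71 in control healthy cortices. Control AKI was lowest and control healthy highest, with the GR-deficient groups overlapping between them. It differed by -0.18 in GR-deficient mice (adjusted p = 0.476) and fell by 1.43 in control mice (adjusted p = 5.86e-07), and the responses differed by 1.25 (adjusted p = 0.000369). Ces1c fell by 0.60 in control mice, and its higher level in GR-deficient AKI (0.44) was lost without GR-deficient AKI replicate 2 (0.084), GR-deficient AKI replicate 3 (0.154), control AKI replicate 2 (0.166) or control AKI replicate 3 (0.0899). Its mean over 12 arrays was at the 15.5 percentile of all genes, and whether it lies above background is not shown.

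Of the Ces2 genes, which code for esterases of intestine, liver and kidney, Ces2e was at 9.21, 9.01 and 8.95 in GR-deficient AKI and 8.2, 8.07 and 8.09 in GR-deficient healthy cortices, against 7.20, 7.90 and 8.31 in control AKI and 7.61, 7.38 and 7.57 in control healthy cortices. The GR-deficient AKI arrays lay above all others, the GR-deficient healthy arrays lay above the control healthy arrays, and the control AKI arrays were spread. It rose by 0.94 in GR-deficient mice (adjusted p = 0.0158), which was lost without GR-deficient AKI replicate 1 (0.0996) or GR-deficient healthy replicate 2 (0.0606). It was 1.26 higher in GR-deficient than control AKI cortices (adjusted p = 0.000527). Ces2g differed by 0.18 in GR-deficient mice (adjusted p = 0.345) and fell by 0.90 in control mice, with a difference in response of 1.08 (adjusted p = 0.00022). Ces2b differed by 0.31 in GR-deficient mice (adjusted p = 0.304) and fell by 0.64 in control mice, with a difference in response of 0.95 (adjusted p = 0.0108).

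Called genes of the same cluster moved in different directions in some clusters and in 1 direction in others. The Gstt calls were all lower, in control mice only. The Gstp calls were all higher and those of the Ugt3 pair all lower, in both genotypes. In control mice the 4 Ces1 calls were also all lower, whereas in GR-deficient mice Ces1g rose and Ces1d and Ces1e fell. In the RefSeq gene order Ces1a, Ces1b and Ces5a, at the ends of the Ces1 cluster, were called in no contrast, and Ces1c, Ces1d, Ces1e, Ces1f and Ces1g between them carried the differences. In the cluster of Ugt2 and Sult1 genes on chromosome 5, Ugt2b34 at one end rose in GR-deficient mice, Ugt2b5, Ugt2b37 and Ugt2b38 fell in both genotypes, and Sult1e1 at the other end rose in control mice. No other protein-coding gene lies within these clusters in that annotation.

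**Figure D4:**
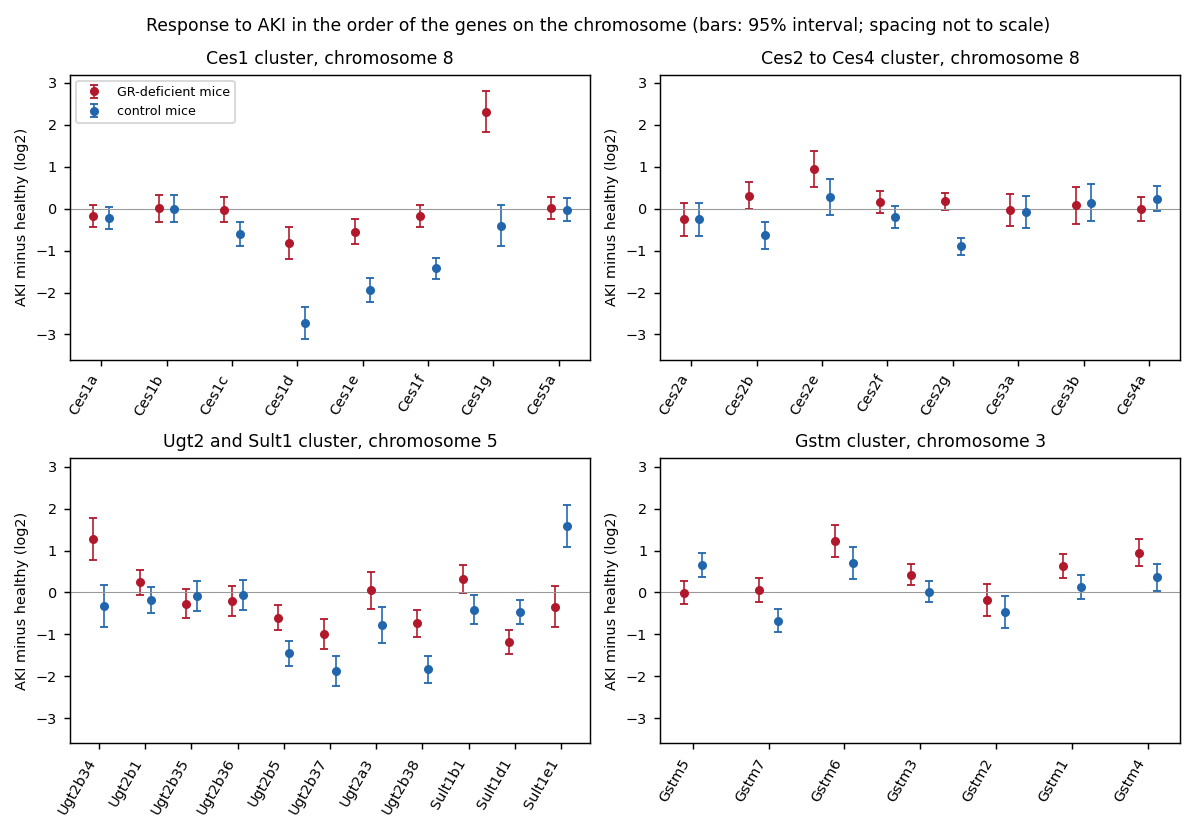
AKI minus healthy difference (log2) with its 95% interval for the measured genes of 4 clusters in RefSeq order along the chromosome, in GR-deficient (red, left) and control mice (blue, right), with spacing not to scale. In the Ces1 cluster the control values reach -2.72 at Ces1d, while Ces1g is at 2.31 in GR-deficient mice.

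A set of 26 members was called in no contrast: 11 Sult, 8 Ces, 3 Gst, 3 Ugt and 1 Mgst. In 24 of them all 4 group means were below 7, near or below the median of the arrays, where a small difference may not be detectable. Averaged over the genes of a family after subtracting the mean of each gene, the Ugt genes stood at -0.16 to -0.01 on the GR-deficient AKI arrays and 0.04 to 0.29 on the GR-deficient healthy arrays, against -0.59 to -0.48 in control AKI and 0.35 to 0.47 in control healthy cortices. The Ces genes stood at 0.11 to 0.31 in GR-deficient AKI and 0.02 to 0.17 in GR-deficient healthy cortices, against -0.52 to -0.36 in control AKI and 0.12 to 0.13 in control healthy cortices. The Gst genes stood at 0.28 to 0.44 in GR-deficient AKI and -0.11 to -0.04 in GR-deficient healthy cortices, against -0.26 to 0.07 in control AKI and -0.17 to -0.14 in control healthy cortices. The Gst arrays of the GR-deficient AKI group were therefore above all others, whereas the Ugt and Ces arrays of the control AKI group were below all others.

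**Figure D5:**
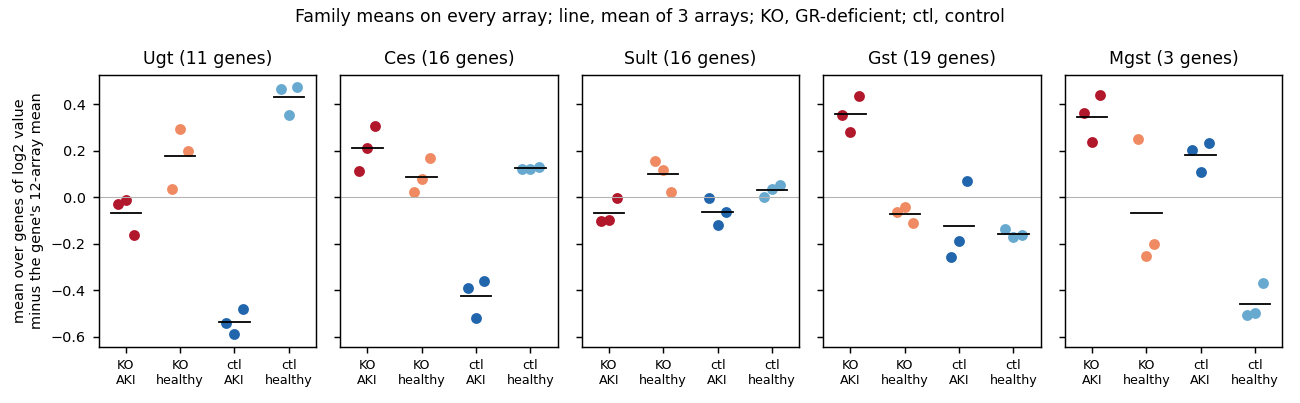
Mean over the genes of a family of the log2 value minus the mean of each gene over 12 arrays, 1 point for each array and a line at the mean of 3 arrays (KO, GR-deficient; ctl, control). The control AKI points are lowest for Ugt (-0.59 to -0.48) and Ces (-0.52 to -0.36), and the GR-deficient AKI points are highest for Gst (0.28 to 0.44).

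The donors and partners of these enzymes were examined in lists of related genes. How far the calls of these related genes depend on single arrays was not examined. For comparison with every list below, 3.29% of all genes rose and 1.35% fell in GR-deficient mice. In control mice 13.6% of all genes rose and 15.1% fell. Of 7 genes that supply UDP sugars, 3 rose in GR-deficient and 2 in control mice, and 2 fell in control mice. Ugdh, which makes UDP-glucuronic acid, rose by 0.78 in GR-deficient and 1.33 in control mice, and Pgm2 by 0.89 and 1.91 in the same order. Both were lower in GR-deficient than control AKI cortices (-0.84 and -0.77). Of 11 genes of PAPS supply, 1 rose in GR-deficient mice, and 1 rose and 5 fell in control mice. Papss2, a PAPS synthase, differed by 0.12 in GR-deficient mice (adjusted p = 0.788) and fell by 1.89 in control mice, a difference in response of 2.01 (adjusted p = 0.000273). Bpnt1 (-1.26), Papss1 (-1.26) and the sulfate carrier Slc26a1 (-1.25) also fell in control mice.

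Of 20 genes of glutathione supply and breakdown, 3 rose and 2 fell in GR-deficient mice, and 5 rose and 12 fell in control mice. Slc7a11, the cystine carrier, rose by 1.85 in GR-deficient and 4.15 in control mice and was 2.34 lower in GR-deficient AKI (difference -2.34, adjusted p = 0.000329). The brush border peptidases Anpep and Dpep1, which break down glutathione conjugates, differed by 0.03 and -0.28 in GR-deficient mice and by -2.03 and -1.51 in control mice, and only the control values passed. Of 17 genes of other conjugations, 0 rose and 5 fell in GR-deficient mice and 0 rose and 12 fell in control mice. Inmt, an N-methyltransferase, fell by 0.78 in GR-deficient and 2.62 in control mice, and Acsm5, a medium-chain acyl-CoA synthetase, by 0.71 in GR-deficient and 2.54 in control mice.

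Of 13 other hydrolases, 1 rose in GR-deficient mice and 2 rose and 5 fell in control mice. The share called in GR-deficient mice was 7.69%, near the 4.64% of all genes. The one that rose in GR-deficient mice was Ephx1, microsomal epoxide hydrolase (0.82, adjusted p = 0.0275). Aadac, arylacetamide deacetylase, differed by -0.18 in GR-deficient mice (adjusted p = 0.465) and fell by 1.85 in control mice. Gusb, beta-glucuronidase, which removes glucuronic acid, was lower in GR-deficient than control healthy cortices (-0.80, adjusted p = 0.0144). In that comparison 0.11% of all genes were lower. Of 12 carriers of conjugates and organic anions, 5 rose in GR-deficient mice, and 7 rose and 5 fell in control mice. The efflux pumps Abcc4 (1.13 in GR-deficient, 1.11 in control mice) and Abcb1a (0.84 and 1.23) rose in both genotypes, whereas the uptake carrier Slc22a8, which is also on the list of proximal tubule markers, differed by 0.08 in GR-deficient mice and fell by 1.94 in control mice.

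Of 16 regulators and their targets, 6 rose in GR-deficient mice, and 5 rose and 3 fell in control mice. Nqo1, a textbook target of the oxidant sensor NRF2, rose by 1.66 in GR-deficient and 1.78 in control mice. Hmox1, heme oxygenase, rose by 1.73 in GR-deficient and 3.77 in control mice, and Srxn1, sulfiredoxin, by 1.76 in GR-deficient and 3.48 in control mice. Nr1i2, the gene of the xenobiotic receptor PXR, named after its values were seen, rose by 0.70 in GR-deficient mice (adjusted p = 0.0122) and differed by 0.05 in control mice (adjusted p = 0.881). Hnf4a, a factor of proximal tubule and liver genes, differed by -0.07 in GR-deficient mice (adjusted p = 0.864) and fell by 1.52 in control mice, a difference in response of 1.45 (adjusted p = 0.00112).

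Markers of cell types differed along the same comparisons. With AKI 3.29% of all genes rose and 1.35% fell in GR-deficient mice, and 13.6% rose and 15.1% fell in control mice. Between the AKI groups 10% of all genes were higher in GR-deficient mice. The 16 proximal tubule markers had array means of 12.10 to 12.25 in GR-deficient AKI and 12.22 to 12.67 in GR-deficient healthy cortices, against 11.04 to 11.40 in control AKI and 12.71 to 12.85 in control healthy cortices. Of these, 3 fell in GR-deficient mice with AKI and 16 fell in control mice. The 12 markers of loop of Henle, distal tubule and collecting duct averaged 9.94 to 10.27 in GR-deficient AKI and 10.48 to 10.52 in GR-deficient healthy cortices, against 8.95 to 9.11 in control AKI and 10.45 to 10.53 in control healthy cortices. Of these, 4 fell in GR-deficient mice with AKI and 10 fell in control mice, and 10 were higher in GR-deficient than control AKI cortices, as were 13 of the 16 proximal tubule markers. The 10 markers of injured tubule averaged 8.52 to 9.23 in GR-deficient AKI and 7.20 to 7.99 in GR-deficient healthy cortices, against 10.60 to 10.71 in control AKI and 7.15 to 7.19 in control healthy cortices, and 6 rose in GR-deficient and 9 in control mice. The 9 myeloid markers averaged 7.10 to 7.43 in GR-deficient AKI and 6.85 to 6.97 in GR-deficient healthy cortices, against 7.88 to 8.28 in control AKI and 6.86 to 6.95 in control healthy cortices; 2 rose in GR-deficient mice, and 5 rose and 1 fell in control mice. The 11 hepatocyte markers, of a tissue rich in the enzymes described, averaged 7.32 to 7.50 in GR-deficient AKI and 7.45 to 7.49 in GR-deficient healthy cortices, against 7.21 to 7.26 in control AKI and 7.16 to 7.20 in control healthy cortices, with 2 called after AKI in GR-deficient mice, 4 in control mice and 0 between the healthy groups. The part of these cell types in the differences of the members was not tested, and in whole cortex fewer cells of a type and less RNA per cell cannot be told apart.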

How the data were processed

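Renal cortex RNA of 12 samples was measured on Affymetrix gene arrays, 3 samples in each of 4 groups taken from the labels. The authors deposited log2 expression values. The submitters' processing notes name RMA (robust multichip averaging) and the packages oligo and affy; their versions and the log base are not given in the sources used. The highest value of an array lay between 14.73 and 14.90, within a log2 range. RMA draws the arrays to 1 distribution, which can hide a change shared by most genes.

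Of 35556 probe sets, 21789 had exactly 1 gene symbol. Per gene the probe set with the highest mean was kept, with no filter on dim genes. The number of arrays limits the precision. Tests used limma 3.58.1 under R 4.3.3 (lmFit and eBayes on 4 group means, 8 residual and 6.26 prior degrees of freedom), two-sided, with Benjamini-Hochberg adjustment over 19938 genes in each of 5 contrasts. The fit was also tested on simulated data. Alternatives were other normalizations, filters, probe set rules, weights, priors, samples and thresholds, a replicate block, and leaving out each array.

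Members and lists were chosen with earlier results of these data known. Values on every array are given for up to 3 members of a family with the largest called difference in a contrast. Other called members are named by their difference, and up to 4 genes of a related list by the smallest p. All 65 members matched a RefSeq gene. Replicate numbers showed no clear pairing of the samples: of 18 pairs with the same number, 3 had a correlation over 0.1 (range -0.41 to 0.25). With 3 arrays in a group this cannot exclude a pairing or a batch shared by replicate number, and the labels do not say.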

Additional observations from a re-analysis of the deposited data

Results flagged for a closer look

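The response to AKI differed between the genotypes, by the interaction test, for 23 members, where 11.5% of all genes were called. Each value here is the log2 response in GR-deficient minus that in control mice. Among the carboxylesterases it was 2.72 for Ces1g, 1.90 for Ces1d, 1.39 for Ces1e, 1.25 for Ces1f, 1.08 for Ces2g and 0.95 for Ces2b. Among the UDP-glycosyltransferases it was 1.60 for Ugt2b34, 1.10 for Ugt2b38, 0.88 for Ugt2b37 and for Ugt3a1, 0.85 for Ugt2b5 and 0.63 for Ugt3a2. Among the glutathione S-transferases it was 1.64 for Gstz1, 1.46 for Gstk1, 1.13 for Gstt1, 1.12 for Gstt3, 0.73 for Gstm7 and -0.67 for Gstm5, and it was -0.77 for Mgst1. Among the sulfotransferases it was 2.20 for Sult1c2, 0.73 for Sult1b1, -0.71 for Sult1d1 and -1.92 for Sult1e1. In the same test 7.39% of all genes passed with a higher response in GR-deficient mice and 4.06% with a lower one. Of 16 proximal tubule markers 13, and of 12 markers of loop of Henle, distal tubule and collecting duct 7, passed as higher. Of 10 markers of injured tubule 8 passed as lower. The part of these markers in the differences of the members was not tested.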

How the results depend on the processing

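No called member reversed its direction under any alternative run, which included quantile normalization and cyclic loess of the deposited values. Several alternatives, such as the trended and robust prior and the 1.2-fold test, keep the group means and could not reverse a direction. Leaving out 1 array at a time gave 12 to 18 called members for AKI in GR-deficient mice (20 in the main fit), 29 to 32 for AKI in control mice (31), 24 to 29 between the AKI groups (27), 0 to 1 between the healthy groups (1) and 19 to 28 for the interaction (23). The shares of all genes called in these fits were 1.39% to 4.61%, 23.3% to 30.1%, 12.1% to 18.6%, 0.0502% to 0.577% and 7.8% to 13.5%. Calls that held without each array numbered 12 of 20, 28 of 31, 23 of 27, 0 of 1 and 17 of 23 in that order. A test against a change above 1.2-fold left 12 members for AKI in GR-deficient mice, 14 for the interaction and 0 between the healthy groups, where 0.767%, 4.59% and 0.0351% of all genes were called. Array weights gave 47 members for AKI in control mice, where 48.4% of all genes were then called. The count of 1 between the healthy groups became 3 with quantile normalization, with cyclic loess, with only genes above the median level and with a trended and robust prior, 5 with array weights, 2 with the replicate block, and 0 with only the arrays of these groups or without both arrays that stood apart, an alternative chosen after seeing the data. With the replicate block the other counts were 20, 30, 26 and 22, and 20 of 20, 30 of 31, 25 of 27, 1 of 1 and 21 of 23 called members held, with Sult1b1 among those that lost the interaction (adjusted p = 0.0568). Only 3 of 12 arrays correlated best with arrays of their own number. With only genes above the median level 34 members remained to be tested, of which 19, 27, 25 and 23 were called for AKI in GR-deficient mice, AKI in control mice, the AKI groups and the interaction, where 14.2%, 53.8%, 36.7% and 28.3% of all such genes were. Values near the lower end of the arrays, 3 arrays in a group and related sequences limit what could be detected.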

Other observations

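Probe sets shared by several genes of these families fall outside the members and are given as values, with p adjusted over all named probe sets. The 4 probe sets of Gsta1 and Gsta2, alpha-class transferases whose probe sets are also annotated to a pair of predicted genes, rose by 1.17 to 1.37 in GR-deficient mice and by 1.60 to 1.77 in control mice. Of these, 2 were higher in GR-deficient than control healthy cortices (0.83 and 0.86, adjusted p = 0.0494 for both). The 2 probe sets of Gstp1 and Gstp2 rose by 1.37 and 1.35 in GR-deficient and by 1.22 and 1.19 in control mice, and both were higher in GR-deficient than control AKI cortices. The 2 probe sets of Ugt3a1 and Ugt3a2 differed by -0.38 and -0.39 in GR-deficient mice (adjusted p = 0.0673 and 0.0609) and fell by 1.08 and 1.14 in control mice. The probe set that covers 8 genes of the Ugt1a locus, glucuronosyltransferases of bilirubin and phenols, differed by 0.11 in GR-deficient mice (adjusted p = 0.612) and by -0.10 in control mice (adjusted p = 0.569), and it was 0.38 higher in GR-deficient than control AKI cortices (adjusted p = 0.0194). A second probe set of Gstm3 had a difference after AKI of 0.80 in GR-deficient mice, where the probe set used had 0.42, and 0.02 in control mice for both.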
